A study of Mus musculus with 27 samples.

Results

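The 10 genes described here encode transcription factors of the myeloid blood lineages: Spi1 (PU.1), Cebpa, Cebpb, Cebpd and Cebpe (the C/EBP factors), Irf4, Irf5 and Irf8 (interferon regulatory factors), Klf4 and Nr4a1. They were taken by name from 37208 genes or transcripts measured on 27 mouse arrays, of which 20145 had a gene symbol, and each of the 10 had 1 probe. The data address how expression in developing hemogenic and hematopoietic cells differs when AP-1 is blocked. The cells were derived from the dnFOS ESC line, in which a Flag-tagged dominant-negative FOS peptide sits in a DOX-inducible cassette at Hprt and, once made, keeps FOS and JUN proteins from binding DNA. Clones of this line were picked after drug selection and grown on feeder cells. All groups carry the cassette, and no cells without it were given DOX on these arrays, so that dnFOS and DOX itself cannot be told apart. FLK1+ cells purified from embryoid bodies were taken untreated at 0 h. FLK1+ cells cultured for 5 h (FLK1+ 5h) and complete blast cultures of 24 h (d1 BC) were taken untreated or with 1 µg/ml DOX for the same time. At 48 h, smooth muscle cells (SM), early hemogenic endothelium (HE1, KIT+TIE2+CD41-), late hemogenic endothelium (HE2, KIT+TIE2+CD41+) and hematopoietic progenitors (HP, KIT+TIE2-CD41+) were sorted from untreated cultures and from cultures with 48 h of DOX. Each of the 13 groups had 2 arrays, apart from untreated SM with 3.

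PU.1 is an ETS factor that opens and activates enhancers of macrophage, granulocyte and B cell genes, and its gene is a known target of RUNX1 as blood emerges from hemogenic endothelium. The C/EBP factors are bZIP proteins, as are FOS and JUN: C/EBPα is needed to form granulocyte and macrophage progenitors, C/EBPβ and C/EBPδ act in emergency granulopoiesis and in the acute-phase and inflammatory response, and C/EBPε in the terminal maturation of granulocytes. IRF8 directs monocyte and dendritic cell fate together with PU.1, IRF5 drives inflammatory cytokine genes in macrophages, and IRF4 is best known from lymphoid cells. KLF4 takes part in monocyte differentiation and is also a pluripotency and vascular factor, and Nr4a1 (Nur77) is an immediate early gene that is also required by patrolling monocytes.

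Promoter sequences are shown for Cebpa, Irf8 and Irf5, all of them lower on the DOX arrays of HP cells. The windows were searched for binding sequences of AP-1 and of the members. In the study, most FOS and JUN sites of d1 BC lay distally, in introns or between genes, which such windows largely miss. The sequences are RefSeq windows of build GRCm38.p6, plus strand, 5′ to 3′, 250 bases ending at the base before the annotated start, with capitals marking the TATA box sequence TATAAA.
Cebpa, chr7:35119043-35119292: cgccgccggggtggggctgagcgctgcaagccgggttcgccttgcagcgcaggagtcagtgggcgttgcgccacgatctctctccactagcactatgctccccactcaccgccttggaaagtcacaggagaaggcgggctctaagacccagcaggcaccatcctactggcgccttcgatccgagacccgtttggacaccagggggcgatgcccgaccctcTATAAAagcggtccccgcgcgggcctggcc
Irf8, chr8:120736108-120736357: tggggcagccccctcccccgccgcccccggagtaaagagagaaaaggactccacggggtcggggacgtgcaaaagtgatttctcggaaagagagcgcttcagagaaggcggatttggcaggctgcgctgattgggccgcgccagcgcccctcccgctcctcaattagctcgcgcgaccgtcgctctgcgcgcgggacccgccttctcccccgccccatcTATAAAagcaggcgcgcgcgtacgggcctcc
Irf5, chr6:29526375-29526624: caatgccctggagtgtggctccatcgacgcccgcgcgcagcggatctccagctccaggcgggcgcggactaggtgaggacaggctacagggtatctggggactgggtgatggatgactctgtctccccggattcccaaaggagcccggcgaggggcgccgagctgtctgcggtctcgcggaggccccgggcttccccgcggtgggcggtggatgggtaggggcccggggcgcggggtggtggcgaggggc
Of the 10 genes, 7 had a window in the table (Cebpa, Cebpb, Irf4, Irf5, Irf8, Klf4 and Nr4a1), 8 windows in all because Irf8 had 2. Each window of 300 bases, from 250 before the start to 50 after it, was searched on both strands. None of the 8 held the PU.1 core GAGGAAG, which 13.6% of all 32851 promoters held. None held the C/EBP sequence TTGCNNAA or its reverse complement TTNNGCAA (10.8% of promoters), and none held the AP-1 sequence TGANTCA (7.81%). The IRF repeat of GAAA, any 2 bases and GAAA (3.44%), the KLF sequence CCACACCC (3.56%) and the NR4A sequence AAAGGTCA (1.51%) were also not found in these windows, which says only that these letters are not there. TATAAA, held by 13.6% of promoters, began 30 bases before the start of Cebpa, 31 bases before the first start of Irf8 and 26 bases before that of Irf4, and it lay 21 bases after the start of Cebpb. The other windows, among them that of Irf5, held no TATAAA.

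Levels are given as log2 of the deposited spot signal minus the 75th percentile of its array, so that 0 is the signal that 75% of spots fall below; levels of different genes are not compared, since probes differ in brightness. A spot counted as detected when the scanner software marked it well above background. The 75th percentile ranged from 78.81, on replicate 1 of untreated HE2, to 732 intensity units. Of the probes, 46.96% to 74.84% were detected on 26 of the arrays. Replicate 2 of untreated SM stood apart with 89.63%, and values that moved or lost a call without it are given both ways. Replicates of a group correlated at r = 0.922 to 0.974 across genes. The number of arrays limits the precision of every value, and nothing in the labels says that replicates were separate cultures, so p-values measure only the spread between these samples, which may be technical. Hprt, which carries the cassette, was higher on every DOX array than on every untreated array of its population, by at least 1.113 (at 5 h) to 3.139 (in d1 BC) on the log2 scale. All 6 smooth muscle markers were detected on all SM arrays, and the 6 endothelial and 6 blood progenitor markers were detected on all arrays of all sorted populations, SM among them, so that detection alone did not tell the sorts apart. The summed blood progenitor markers were 2.00 to 2.48 in untreated SM, 3.84 to 4.06 in HE1, 5.91 to 6.13 in HE2 and 6.58 to 6.80 in HP.

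Cebpb, Cebpd, Klf4 and Nr4a1 were detected on all 27 arrays. Irf5 and Irf8 were detected on 22, Cebpa on 15, Cebpe on 12 and Spi1 on 7. Irf4 was detected on 1 array, replicate 1 of untreated d1 BC, with levels between -7.55 and -4.08 on the 27 arrays, and it was never tested. For 6 of the 10 genes (Spi1, Cebpa, Cebpb, Cebpd, Cebpe and Irf8), untreated HP was the group with the highest mean. The plot of every array by population shows these levels.

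**Figure D1:**
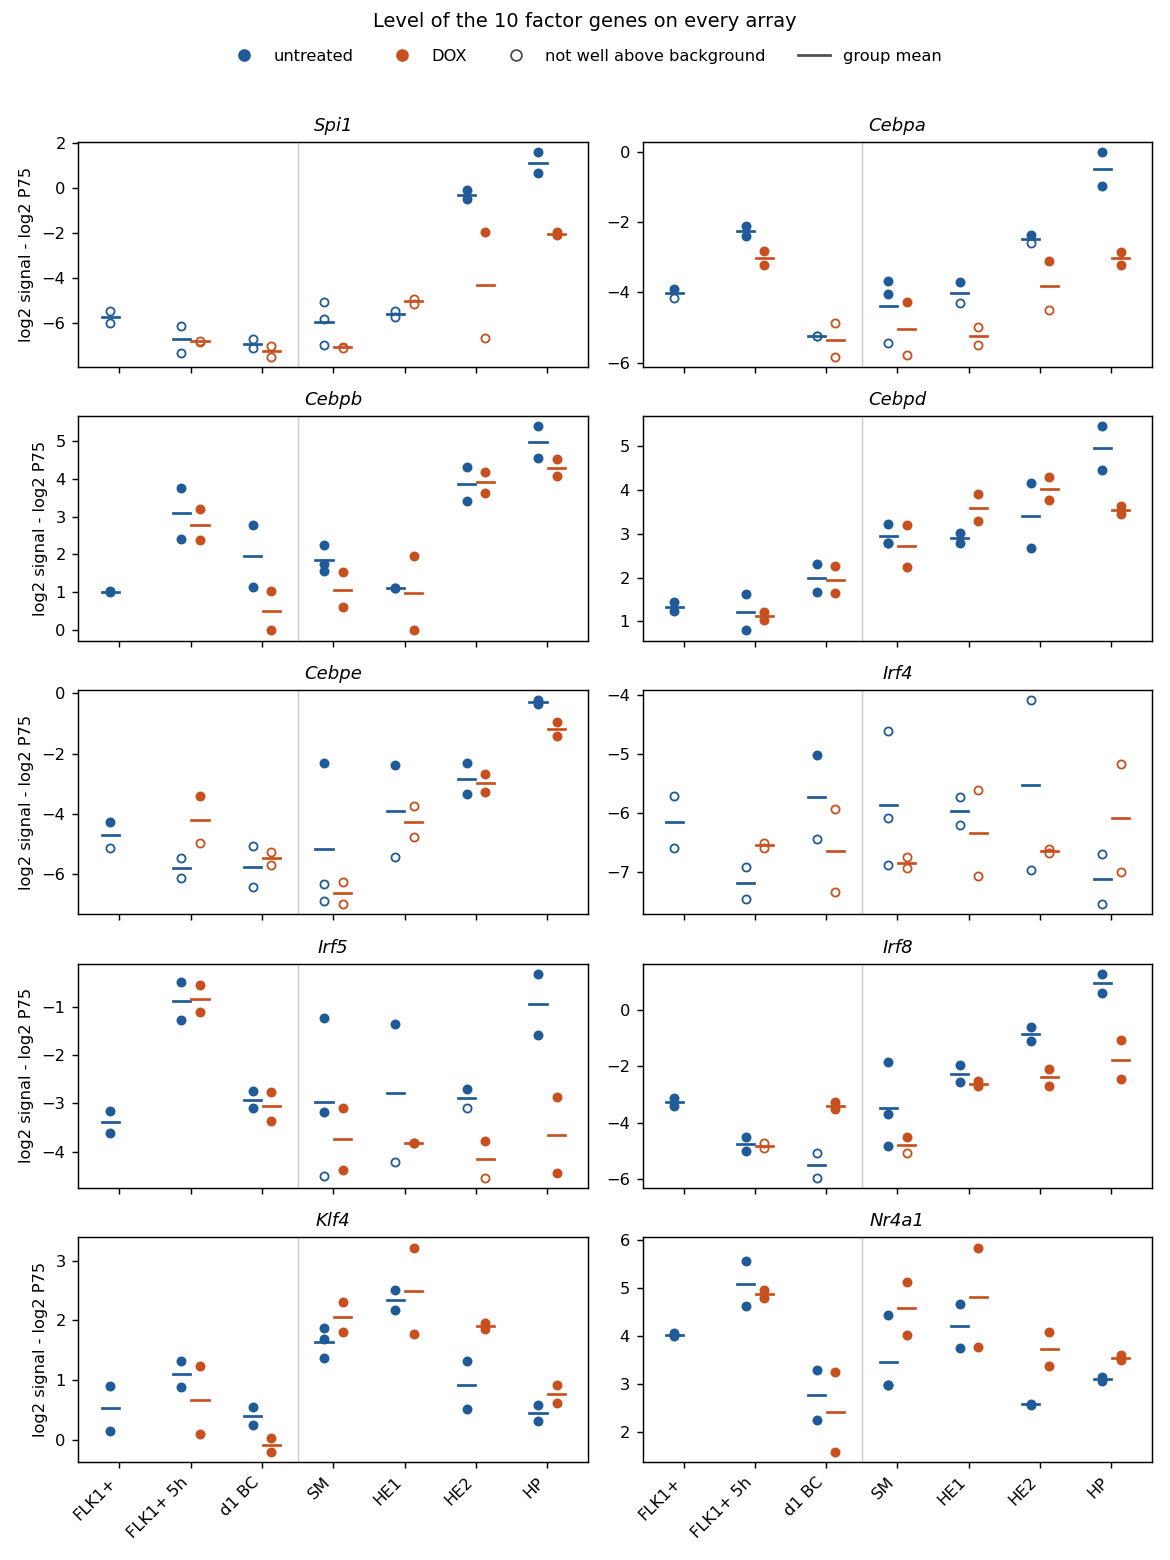
Level (log2 signal minus log2 of the 75th percentile of the array) of each of the 10 genes on the 27 arrays, by population; blue points are untreated and orange points DOX arrays, open points are not well above background, and short lines are group means. Spi1 is open in all populations before HE2 and reaches 1.57 in untreated HP, whereas Klf4 and Nr4a1 are filled everywhere and have their highest means outside HP.

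Spi1 was not detected on any array of FLK1+, FLK1+ 5h, d1 BC, SM or HE1, with or without DOX, where its level lay between -7.50 and -4.94. In untreated HE2 it stood at -0.12 and -0.50, and in untreated HP at 1.57 and 0.66. With DOX it was -1.98 and -6.68 in HE2, the second of which was not detected, and -1.97 and -2.11 in HP. Untreated HP did not overlap with untreated HE2, nor untreated HE2 with DOX HP. The lower groups were mostly at background, and DOX HP overlapped with the 1 DOX HE2 array on which Spi1 was detected.

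From untreated HE1 to HE2, the step at which CD41 appears, Spi1 rose at least 16.89-fold (log2 difference 5.29, SE 0.96, limma adjusted p = 0.00516). Between the HE1 and HE2 arrays of one slide it was at least 12.25-fold, and at least 23.28-fold on the other slide. The call was lost without replicate 1 of untreated HE1 (adjusted p = 0.0683) or of untreated HE2 (0.0653). It was also lost with the normexp background correction, where the difference was 1.44 (adjusted p = 0.269), with array weights (0.0814) and with the 2 groups alone (0.446). From untreated SM to HP, Spi1 rose at least 65.44-fold on the percentile-scaled values (adjusted p = 4.70e-05). The log2 difference of 7.07 behind it was 3.55 with normexp and 4.79 on the authors' values, both still called. Of 5 tested macrophage markers, 3 were higher and 1 lower in HE2 than in HE1 without overlap, and their summed level was 5.52 to 6.05 in untreated HE1 and 3.72 to 6.66 in untreated HE2. Their part in the Spi1 level was not tested. In bulk samples, fewer cells that express a gene and less RNA of it per cell cannot be told apart, here and in all that follows.

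Irf8 was low but detected before the sorted stages, at -3.42 and -3.14 in FLK1+ cells and -5.01 and -4.49 in untreated FLK1+ 5h. It was not detected in untreated d1 BC (-5.95 and -5.06). In untreated sorted cells it was -2.55 and -1.97 in HE1, -1.10 and -0.62 in HE2, and 1.27 and 0.59 in HP. No array of one of these populations overlapped with those of the next. From untreated d1 BC to HE1, Irf8 rose at least 8.166-fold (log2 difference 3.25, SE 0.71, adjusted p = 0.0153). These groups share no slide, and with slide as a term of the fit the difference was 1.71 and the call was lost (adjusted p = 0.432). It was also lost without any 1 of the 4 arrays (adjusted p from 0.0548 to 0.154), on the authors' values (1.18, 0.0657) and with the 2 groups alone (0.0942). The later steps were not called: 1.40 to HE2 (adjusted p = 0.591) and 1.79 from HE2 to HP (adjusted p = 0.774). From SM to HP, the difference of 4.40 was called (adjusted p = 0.000179), although the SM arrays spread widely, at -4.83, -1.86 and -3.71. The middle value is that of replicate 2, and without it the difference was 5.20 (adjusted p = 1.16e-05). The difference was 2.94 with normexp, and the call was lost with the 2 groups alone (adjusted p = 0.057).

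Irf5 had its highest group means at 5 h, with -0.49 and -1.27 in untreated and -0.56 and -1.11 in DOX cells, against -3.15 and -3.61 in FLK1+ cells. Neither that step (log2 difference 2.50, SE 0.93, adjusted p = 0.194) nor the one to d1 BC (-2.05, adjusted p = 0.439) was called. In HP it was -0.32 and -1.59 untreated, and -2.87 and -4.45 with DOX. From untreated SM to HP the difference was 2.03 (adjusted p = 0.191), and the arrays overlapped because replicate 2 of SM stood at -1.23 while the others were at -3.19 and -4.51. Without that array the difference was 2.90 and was called (adjusted p = 0.026).

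Cebpa had a first maximum at 5 h. Its level was -3.89 and -4.17 in FLK1+ cells, -2.11 and -2.39 in untreated FLK1+ 5h, and -5.23 and -5.25 in untreated d1 BC, where it was not detected. The fall from 5 h to 24 h was at least 6.416-fold (log2 difference -2.99, SE 0.64, adjusted p = 0.0257). That call was lost without any 1 of the 4 arrays (adjusted p from 0.0633 to 0.268), with slide (0.0584) or scan day (0.0649) as a term, with quantile normalization (0.0573), with the 2 groups alone (0.0741) and with normexp, where the difference was -1.23 (0.399). The earlier difference of 1.78 to 5 h did not pass the test (adjusted p = 0.176). In sorted untreated cells Cebpa was -4.31 and -3.71 in HE1, -2.58 and -2.36 in HE2, and -0.01 and -0.97 in HP. It was not detected on replicate 1 of HE1 (-4.31) or of HE2 (-2.58). Between HE2 and HP the difference was 1.99 with no overlap and was not called (adjusted p = 0.557), and from SM to HP it was 3.90 and called (adjusted p = 0.00022), or 1.81 with normexp.

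Cebpb was detected throughout and lay at 1.00 and 1.02 in FLK1+ cells, 3.77 and 2.41 in untreated FLK1+ 5h, and 2.79 and 1.14 in untreated d1 BC. In untreated sorted cells it was 1.11 and 1.12 in HE1, 3.43 and 4.32 in HE2, and 4.56 and 5.40 in HP. It rose 6.775-fold from HE1 to HE2 (log2 difference 2.76, SE 0.71, adjusted p = 0.0442). Within slides the difference was 2.32 and 3.20. The call was lost without any 1 of the 4 arrays (adjusted p from 0.113 to 0.245) and with every probe tested on its own (0.0561), detection in both groups (0.0673), no filter (0.069), median scaling (0.0754), array weights (0.281) and the 2 groups alone (0.578). From SM to HP, Cebpb rose by 3.13 (adjusted p = 0.00314), a call lost without replicate 2 of HP (0.0696).

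Cebpd was 1.23 and 1.45 in FLK1+ cells, 1.63 and 0.79 in untreated FLK1+ 5h and 1.68 and 2.30 in untreated d1 BC. In HE1 it was 3.03 and 2.78, in HE2 2.67 and 4.15, and in HP 4.45 and 5.45. The difference of 1.54 from HE2 to HP did not pass the test (adjusted p = 0.703) and was 0.80 without replicate 1 of HE2 and 2.28 without replicate 2. The difference of 2.01 from SM to HP passed (adjusted p = 0.0136), though not without replicate 2 of HP (0.272) or with the 2 groups alone (0.162). Cebpe was detected on all arrays only of HE2 and HP, at -2.32 and -3.35 in untreated HE2 and -0.22 and -0.34 in untreated HP. From SM to HP it rose by 4.91 (adjusted p = 0.00407), a call lost without replicate 1 of HP (0.0582) and with the 2 groups alone (0.121). The difference was 1.90 with normexp and 3.04 on the authors' values. Cebpe stood at -2.31 on replicate 2 of SM and at -6.91 and -6.33, not detected, on the other SM arrays, and without replicate 2 it was at least 23.36-fold higher in HP (adjusted p = 7.08e-05).

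Klf4 and Nr4a1 did not have their highest level in HP. Klf4 was 0.24 and 0.55 in untreated d1 BC, 2.18 and 2.50 in HE1, 0.51 and 1.32 in HE2, and 0.31 and 0.58 in HP. The difference from d1 BC to HE1 was 1.94 (adjusted p = 0.0528) and that from HE1 to HE2 was -1.42 (adjusted p = 0.263). Nr4a1 was 5.57 and 4.62 in untreated FLK1+ 5h, 3.29 and 2.25 in d1 BC, 3.75 and 4.66 in HE1, 2.56 and 2.58 in HE2, and 3.06 and 3.14 in HP. Its differences were -2.32 from 5 h to d1 BC (adjusted p = 0.155, but called with quantile normalization at 0.0346, slide as a random block at 0.0286, array weights at 0.0205 and on the authors' values at 0.0126) and -1.63 from HE1 to HE2 (adjusted p = 0.447). The arrays of HE1 lay above those of HE2 for both genes, and neither step was called.

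Counts over the group use 1 rule. For a call, the Benjamini-Hochberg p had to lie under 0.05 and the difference had to reach 2-fold, and only genes detected on all arrays of 1 or both of the groups were tested. From FLK1+ to 5 h none of 7 tested members was called by limma, against 2.73% of all genes tested, and 3 had an unadjusted p under 0.05 (15% of all genes). Cebpa was tested in that step only through 5 h, where it was higher. From 5 h to d1 BC 1 of 7 was called (1.43% of all genes), and from d1 BC to HE1 1 of 6 (3.17%). The genes called, Cebpa and Irf8, were not detected in untreated d1 BC and so were tested only through the group in which they were higher. From d1 BC to SM none of 6 was called (0.26%), and 2 had an unadjusted p under 0.05 (5.92%). One of these was Irf8, at least 3.542-fold higher in SM, whose log2 difference of 2.04 came to 1.24 without replicate 2 of SM and to 0.97 with slide as a term. Irf8 was tested there only through SM. From HE1 to HE2 the 2 called, Spi1 and Cebpb, were of 7 tested, where 2.33% of all genes were called, 0.541% upwards. Spi1 was tested only through HE2. From HE2 to HP none of 9 was called, and 1 of 25353 genes was in all (0.00394%); 4 members had an unadjusted p under 0.05 (5.96% of all genes). There, 8 of the 9 were higher on every HP array than on every HE2 array, against 15% of all genes. Cebpa and Irf5 were tested only through HP, on whose arrays alone both were always detected. Klf4 was the exception, with overlapping arrays. From SM to HP 6 of 9 were called, all upwards, where 9.42% of all genes were called, 3.19% upwards. Klf4 differed by -1.20 and was not called (limma adjusted p = 0.167). It was called lower with quantile normalization (0.033), with slide as a random block (0.049) and on the authors' values (0.0298). Of the 6, Cebpb, Cebpd and Irf8 were detected on all arrays of both groups. Spi1, Cebpa and Cebpe were detected on all arrays of HP alone and so were tested only through the group in which they were higher.

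The untreated HP arrays used above are also the reference for DOX, and the untreated HE2 arrays stand on both sides of the steps, so that these comparisons are not independent of each other. In HP cells given DOX, 7 of the 9 tested members were lower on every DOX array than on every untreated array, and Klf4 and Nr4a1 were higher on every DOX array. Over all 25129 genes tested, 11.8% were lower and 28.1% higher without overlap. No member was called by limma on the percentile-scaled signals, where 8 genes were called in all (0.0318%), and 5 members had an unadjusted p under 0.05, all of them lower (3.47% of all genes, 2.26% lower). The median log2 difference of the 9 was -1.41 against 0.295 for all genes.

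The levels of Spi1 were 1.57 and 0.66 untreated against -1.97 and -2.11 with DOX, a log2 difference of -3.15 (SE 0.96, unadjusted p = 0.00401, adjusted p = 0.619). Those of Cebpa were -0.01 and -0.97 against -3.22 and -2.84, a difference of -2.54 (SE 0.64, adjusted p = 0.341). Those of Irf8 were 1.27 and 0.59 against -1.09 and -2.44, a difference of -2.70 (SE 0.71, adjusted p = 0.399). In each case the gap between the groups was wider than the spread within them. Irf5 differed by -2.71 (SE 0.93, adjusted p = 0.919). Cebpd, at 4.45 and 5.45 untreated and 3.45 and 3.64 with DOX, differed by -1.41 (SE 0.55, adjusted p = 0.988), or -0.90 without replicate 2 of untreated HP. Cebpe differed by -0.91 (SE 1.15) from -0.22 and -0.34 to -0.97 and -1.41, and Cebpb by -0.68 (SE 0.71) from 4.56 and 5.40 to 4.08 and 4.52, each with an adjusted p of 0.988. Leaving out 1 array moved Cebpb between -1.10 and -0.26. These were the smallest differences of the 7.

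Both HP replicates sat on a slide with both treatments. Within the slides the difference was -2.77 and -3.54 for Spi1, -1.87 and -3.21 for Cebpa, -3.04 and -2.36 for Irf8, -2.86 and -2.56 for Irf5 and -1.81 and -1.0 for Cebpd. All 9 members had the same sign on both slides, which follows from their arrays not overlapping and adds nothing to it. With slide as a term, the adjusted p was 0.0892 for Cebpa, 0.181 for Irf8 and 0.301 for Spi1, none of them past the threshold.

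Whether these differences passed the test depended on the values used. On the authors' own normalized log2 values, whose exact scaling is not given in the sources used here, 136 genes were called in HP, among them 4 members: Irf8 with a difference of -2.53 (adjusted p = 0.0017), Spi1 with -2.90 (0.0032), Cebpa with -2.18 (0.00655) and Cebpd with -1.55 (0.0199). With the normexp background correction Irf8 was called at -2.13 (adjusted p = 0.0447), and Spi1 stood at -2.34 (0.0531). The difference of Cebpa shrank to -1.42 and that of Irf5 to -1.36 under normexp. Spi1 and Cebpa were named by the study from these same arrays, so their direction is not independent evidence. The small positive differences of Klf4 (0.33, SE 0.53, adjusted p = 0.988) and Nr4a1 (0.45, SE 0.72, adjusted p = 0.988) did not pass any test, and with median scaling, under which the median of all genes was -0.025, they came to 0.005 and 0.128 and their arrays overlapped.

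**Figure D2:**
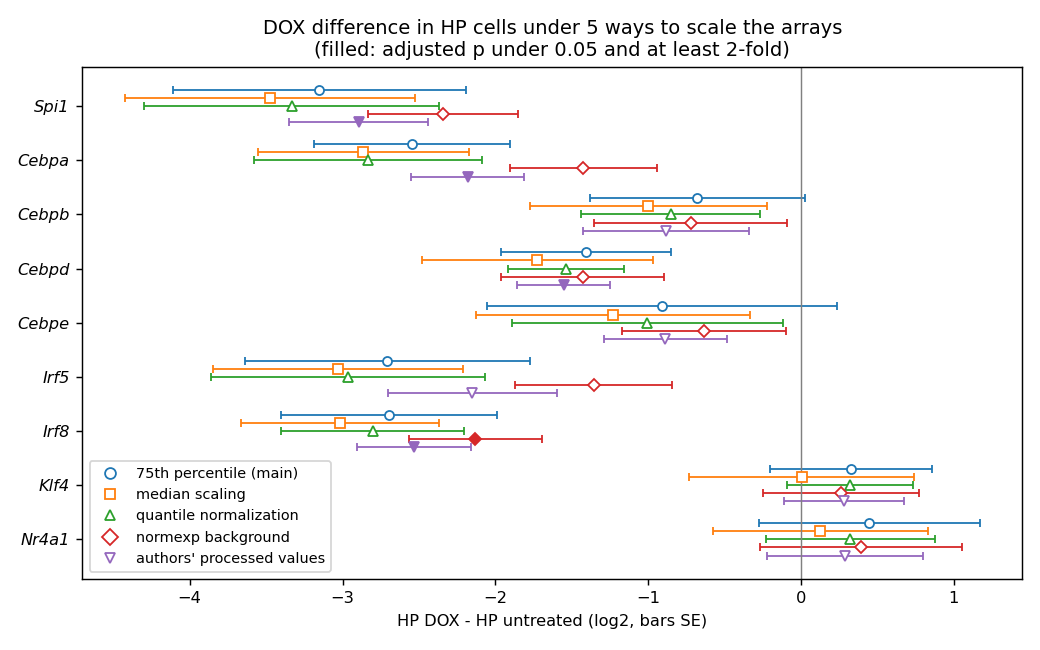
Log2 difference between DOX and untreated HP cells for the 9 tested members, with SE bars, under the 5 scalings named in the key; filled symbols were called. Spi1, Cebpa, Irf5, Irf8 and Cebpd lie below 0 throughout, filled symbols occur for the authors' processed values in 4 genes and for normexp in Irf8, and Klf4 and Nr4a1 lie near 0.

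Markers of other cells in the HP arrays were compared beside these values. The summed macrophage markers (5 of the 6 listed were matched) ranged from 4.27 to 5.75 with DOX and from 4.46 to 4.64 untreated. Of the 5, 3 were lower and 2 higher on the DOX arrays without overlap. The summed granulocyte markers were 6.32 to 6.34 against 6.13 to 6.38. The summed erythroid markers were 7.68 to 7.89 against 7.13 to 7.89, with all 5 tested genes higher (median 1.12), and the summed megakaryocyte markers were 6.75 to 7.00 against 6.16 to 6.73, with all 5 tested genes higher (median 0.51). The feeder markers were at 0.13 to 0.20 against 0.53 to 1.58. S100a8 of the granulocyte and Ppbp of the megakaryocyte list were not detected on any HP array. The part of these in the lower Spi1, Cebpa and Irf8 levels was not tested.

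In HE2 cells given DOX, Spi1 was -1.98 and -6.68 against -0.12 and -0.50 untreated, a difference of -4.02 (SE 0.96, unadjusted p = 0.000533, adjusted p = 0.568). The DOX arrays differed from each other by more than the nearer of them differed from the untreated arrays. Leaving out DOX replicate 1 left the array on which Spi1 was not detected, with Spi1 at least 23.16-fold lower (adjusted p = 0.00165). Without DOX replicate 2, on which Spi1 was not detected, it was -1.67 (adjusted p = 1). Irf8, at -2.10 and -2.69 against -1.10 and -0.62, differed by -1.54 (SE 0.71, adjusted p = 0.568), with -2.08 and -1.003 within the slides. Klf4, at 1.86 and 1.96 against 0.51 and 1.32, was higher by 0.99 (SE 0.53, adjusted p = 0.568, or 0.59 without replicate 1 of untreated HE2), and Nr4a1, at 3.37 and 4.08 against 2.56 and 2.58, by 1.15 (SE 0.72, adjusted p = 0.571). These 4 of 7 tested members were the ones whose arrays did not overlap. None of the 7 was called by limma, as was no gene at all (0%), while 15.5% of genes were lower and 18.8% higher without overlap. An unadjusted p under 0.05 was found for 2 members, Spi1 and Irf8, and for 8.36% of all genes. Spi1 was tested only through the untreated group, in which it was higher. Cebpa and Irf5 were not detected on all arrays of either HE2 group and were not tested. Beside these values, the summed macrophage markers were 3.55 to 3.63 with DOX and 3.72 to 6.66 untreated, with 2 of 5 tested lower and 1 higher without overlap. The summed granulocyte markers were 5.34 to 5.83 and 4.80 to 4.81, although 3 of 5 tested were lower and 1 was higher without overlap. The summed megakaryocyte markers were 5.81 to 7.18 and 5.33 to 5.98, with 3 of 5 tested higher and none lower without overlap. Their part in the Spi1 and Irf8 levels was not tested.

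At 5 h, the DOX and untreated arrays of 1 of 7 tested members did not overlap: Cebpa, at -3.22 and -2.83 with DOX against -2.11 and -2.39 untreated (difference -0.78, SE 0.64, adjusted p = 1). There 15.3% of all genes were lower and 19.6% higher without overlap, none was called by limma (0%), and no member had an unadjusted p under 0.05 (5.2% of all genes).

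In d1 BC Irf8 went opposite to HP. It was -3.28 and -3.52 with DOX and -5.95 and -5.06, not detected, without, and thus at least 3.702-fold higher (log2 difference 2.11, SE 0.71, unadjusted p = 0.00792, adjusted p = 1). Within the slides Irf8 was at least 6.367-fold and at least 2.152-fold higher, and the log2 difference shrank to 0.93 under normexp and 0.92 on the authors' values, again not called. Cebpb was lower there by 1.45 on the log2 scale (-1.45, SE 0.71, adjusted p = 1), at 1.03 and -0.01 against 2.79 and 1.14, a difference between -2.28 and -0.63 when 1 array was left out. Klf4 was at -0.20 and 0.03 against 0.24 and 0.55 (-0.48, SE 0.53, adjusted p = 1). None of 6 tested members or of all genes was called by limma (0%), 1 member had an unadjusted p under 0.05 (1.44% of all genes), and 9.76% of genes were lower and 18.4% higher without overlap. That member, Irf8, was tested only through the DOX group, in which it was higher.

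In SM, Cebpb alone of 6 tested members did not overlap, at 0.60 and 1.53 with DOX against 1.55, 2.26 and 1.74 (difference -0.79, SE 0.64, adjusted p = 0.999, or -1.25 to -0.33 with 1 array left out). None of the 6 was called by limma (2 genes in all, 0.00839%) or had an unadjusted p under 0.05 (2.6% of all genes), and 6.11% of genes were lower and 4.43% higher without overlap. In HE1, Cebpd alone of 5 tested did not overlap, at 3.28 and 3.91 with DOX against 3.03 and 2.78 (difference 0.69, SE 0.55, adjusted p = 1, or 0.38 without replicate 2 of DOX HE1). No gene was called there by limma (0%), no member had an unadjusted p under 0.05 (1.16% of all genes), and 9.03% of genes were higher and 8.18% lower without overlap.

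**Figure D3:**
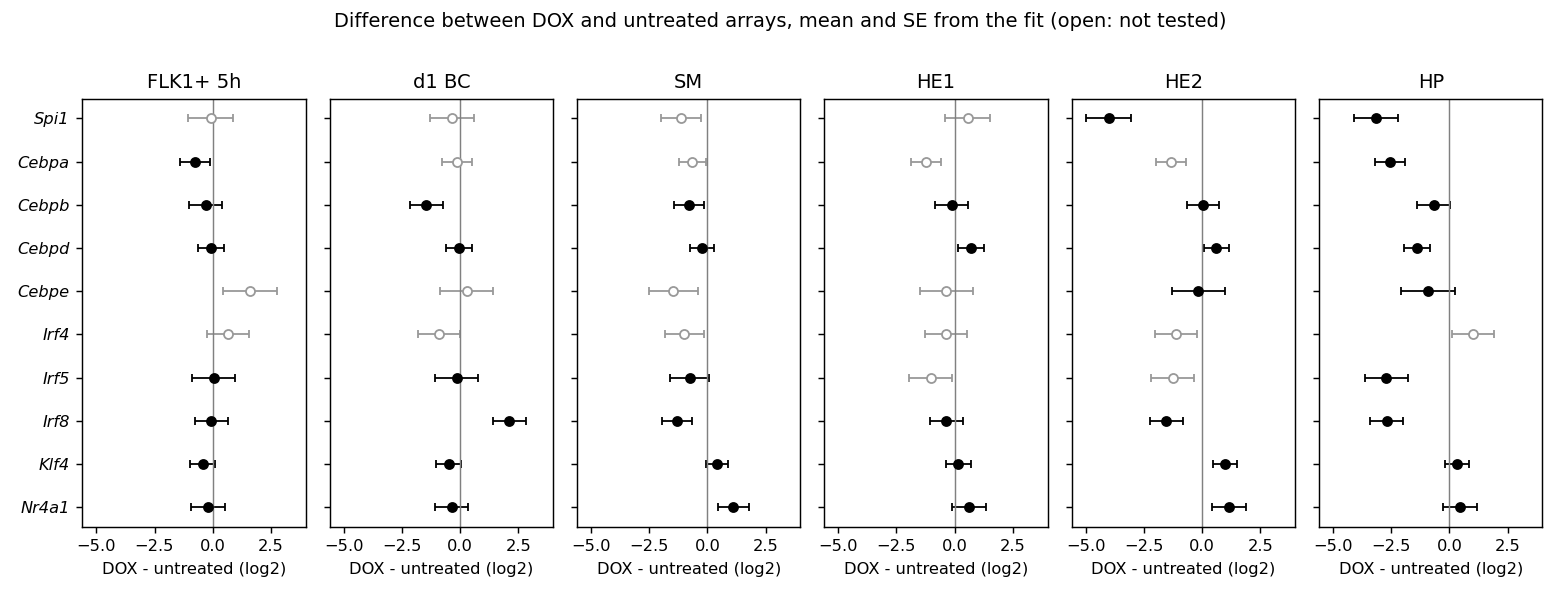
Log2 difference between DOX and untreated arrays for the 10 genes in 6 populations, with SE from the fit; open grey symbols were not tested because the gene was not detected on all arrays of either group. In HP, the points of Spi1, Cebpa, Irf5 and Irf8 lie between -3.15 and -2.54, in HE2 Spi1 lies at -4.02, and in d1 BC Irf8 lies at 2.11.

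Whether the DOX difference itself differed between populations was tested against HP. Between HP and HE1 it differed by -2.10 for Cebpd (SE 0.78, unadjusted p = 0.0152) and by -2.34 for Irf8 (SE 1.00, unadjusted p = 0.0306). Between HP and HE2 it differed by -2.03 for Cebpd (SE 0.78, unadjusted p = 0.0185), which was 4.03 with DOX against 3.41 untreated in HE2 and 3.54 against 4.95 in HP. Without replicate 1 of untreated HE2 the value was -1.29. Between HP and SM it differed by -1.90 for Cebpa (SE 0.87, unadjusted p = 0.0426), which was detected on 3 of the 5 SM arrays. That value was -0.81 with normexp, -2.96 with quantile normalization and -1.15 without replicate 2 of DOX SM. None of these passed after adjustment (limma adjusted p from 0.934 to 1), and no gene was called in any of the 3 tests (0%). An unadjusted p under 0.05 was found for 3 of 9 members against HE1 (1.38% of all genes), the other one being Spi1, which was not detected on any HE1 array and so has no measured DOX difference there,, 1 of 9 against HE2 (4.06%) and 1 of 9 against SM (2.04%).

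The same steps were compared among the DOX arrays. Cebpb rose from HE1 (0.00 and 1.97) to HE2 (3.64 and 4.19) 7.619-fold (log2 difference 2.93, SE 0.71, adjusted p = 0.0433), against 2.76 in untreated cells, and whether these steps differ was not tested. The call was lost without any 1 of 3 of the 4 arrays (adjusted p from 0.16 to 0.513), and kept without replicate 2 of DOX HE1 (0.0282). It was also lost with median scaling (0.0517), every probe tested on its own (0.0532), detection in both groups (0.0622), no filter (0.0668), array weights (0.102) and the 2 groups alone (0.395). Spi1 was -4.94 and -5.16, not detected, in DOX HE1 and detected on 1 of the 2 DOX HE2 arrays, so that this step was not tested. Cebpe, not detected in DOX HE1, was at least 2.428-fold higher in DOX HE2 (adjusted p = 0.987). Of 6 members tested in this step 1 was called, against 1.5% of all genes.

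From DOX HE2 to DOX HP, Cebpe was higher by 1.80 (SE 1.15, adjusted p = 1) and Spi1 by 2.29 with overlapping arrays (adjusted p = 1). The Spi1 step was at least 6.661-fold on the slide whose DOX HE2 array did not detect Spi1, and 0.00 on the log2 scale on the other. It came to -0.07 without replicate 2 of DOX HE2. Without replicate 1, and thus against the undetected array alone, Spi1 was at least 6.976-fold higher in HP (adjusted p = 0.0408). Cebpd (-0.49, adjusted p = 1) and Klf4 (-1.14, adjusted p = 1) were lower on every HP array. No gene was called by limma in this step (0%), 2 of 9 tested members had an unadjusted p under 0.05 (2.83% of all genes), and 9.13% of genes were lower without overlap. Spi1 was tested in this step only through DOX HP.

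**Figure D4:**
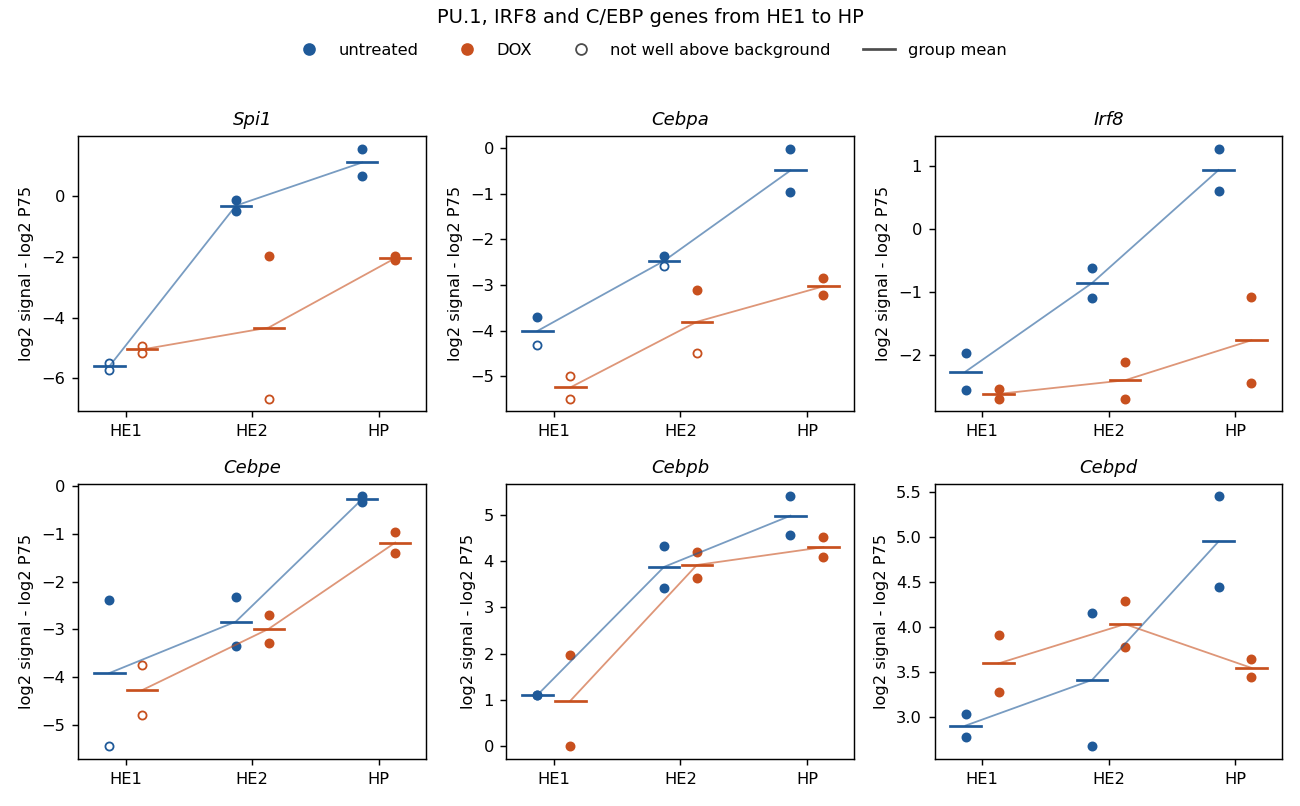
Level of 6 genes in HE1, HE2 and HP, untreated in blue and with DOX in orange, with lines through the group means of 2 arrays; open points are not well above background. The means of Spi1, Cebpa and Irf8 are highest in HP with and without DOX, at 1.11, -0.49 and 0.93 untreated and -2.04, -3.03 and -1.77 with DOX, and for Cebpb the lines lie close together.

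Known target genes of PU.1 and the C/EBP factors were followed as a list of 34, which includes Csf1r, the receptor of macrophage colony stimulating factor that the study also named. From untreated HE1 to HE2, 7 of 27 tested rose and none fell, where 0.541% of all genes were called higher: Ltf (lactoferrin, at least 28.9-fold, adjusted p = 2.47e-05), Fcer1g and Tyrobp (signalling adaptors of myeloid receptors, 29.6-fold and 17.9-fold), Mpo (myeloperoxidase, 22.3-fold), Lyz1 (lysozyme, 19.3-fold), Coro1a (an actin regulator of white blood cells, 17.4-fold) and Csf2rb (a cytokine receptor chain, 5.37-fold, adjusted p = 0.0365). In the same step, 3 of 6 fibroblast feeder markers fell (summed level 0.97 to 5.14 in HE1 and -1.39 to -0.49 in HE2) and all 5 tested smooth muscle markers were lower without overlap. Of the granulocyte markers, which share genes with the target list, 2 of 5 rose (1.18 to 2.08 and 4.80 to 4.81), and of the megakaryocyte markers 3 of 5 (1.30 to 1.80 and 5.33 to 5.98). Their part in the target gene values was not tested. Another 12 target genes were higher without overlap and did not pass the test (17% of all genes were higher and 15.7% lower without overlap), and Blnk, a B cell adaptor, was the 1 that was lower (-1.84, adjusted p = 0.379). Genes detected on all arrays of 1 group only were tested through that group, here and in the lists below. In the step to HP none of 33 was called, 19 were higher without overlap and Elane was lower (-0.85, adjusted p = 0.891), where 15% of all genes were higher and 15.2% lower. Among the largest differences were those of Fcgr2b, an Fc receptor (at least 4.27-fold), and Coro1a (2.85, adjusted p = 0.181).

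In HP with DOX, 23 of 33 tested target genes were lower on every DOX array and 3 were higher (all genes 11.8% and 28.1%), and none was called. The median was -1.82 against 0.295 for all genes. The lowest were Ncf1, a subunit of the phagocyte oxidase (-3.70, SE 0.75, adjusted p = 0.133), Fcgr2b (at least 5.57-fold lower, adjusted p = 0.181) and Cd14, a lipopolysaccharide receptor (-3.39, SE 0.81, adjusted p = 0.279). Higher without overlap were Itgam, the CD11b integrin chain (1.53, SE 0.87), Elane, neutrophil elastase (1.00, SE 0.79), and Csf3r, the receptor of granulocyte colony stimulating factor (0.49, SE 0.51), each with an adjusted p of 0.988. Csf1r, chosen because the study named it, differed by -1.44 (SE 0.94, adjusted p = 0.988). In HE2 with DOX, 16 of 26 tested were lower without overlap and 2 higher (all genes 15.5% and 18.8%), none called, with a median of -1.37 against 0.105. Among the lowest were Fcgr3 (-2.79) and Cd14 (-2.65), and Lcp1 (0.97) and Mpo (0.93) were higher, with adjusted p from 0.568 to 0.601. In SM 9 of 23 were lower and none higher without overlap (all genes 6.11% and 4.43%). The count of lower genes was also 9 without replicate 2 of untreated SM, 18 without replicate 2 of DOX SM and 5 with median scaling or quantile normalization. There, 3 of 4 tested macrophage markers were lower without overlap (summed level 3.37 to 3.59 with DOX and 4.15 to 5.10 untreated), and all 6 erythroid markers had a lower mean with overlapping arrays. Their part in the target gene values was not tested. In HE1, d1 BC and FLK1+ 5h the medians were -0.25, 0.12 and 0.37.

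**Figure D5:**
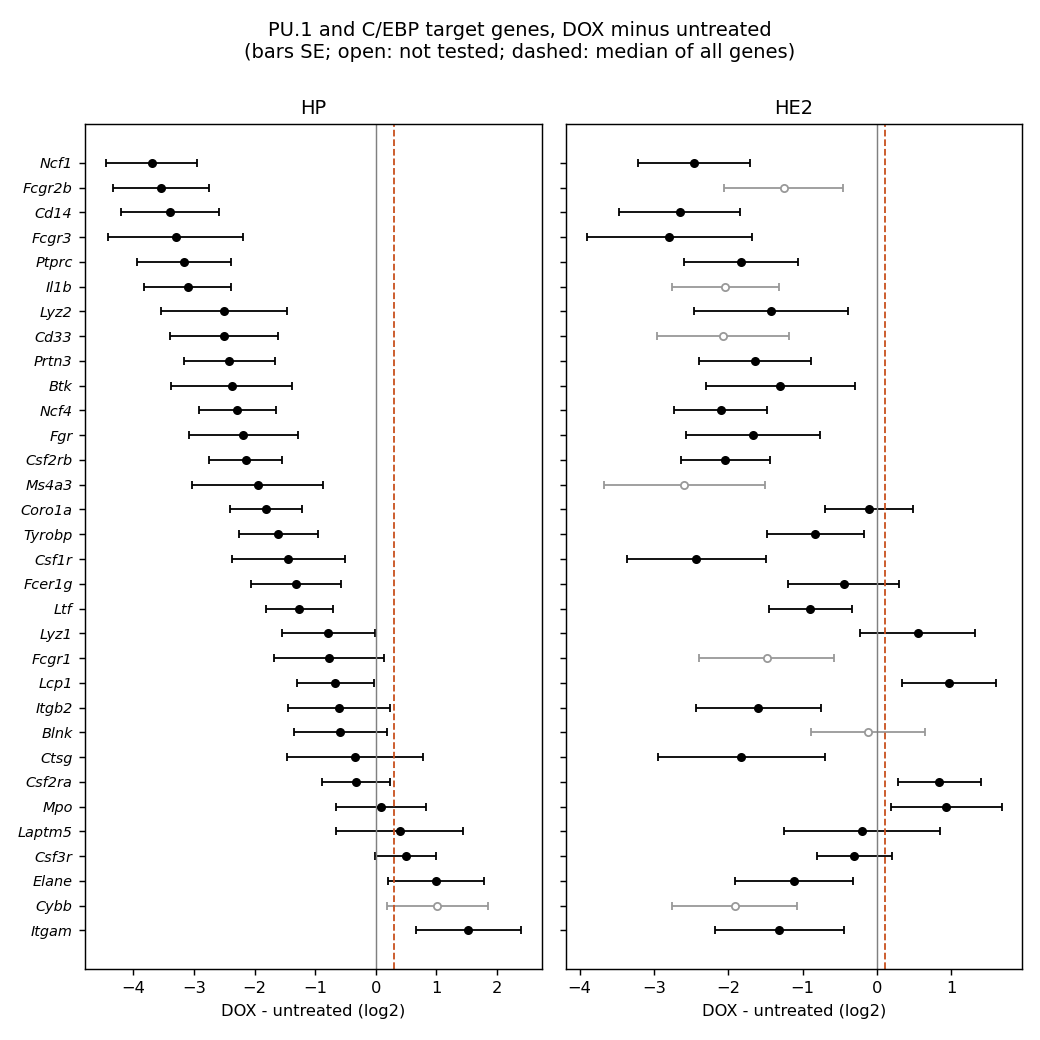
Log2 difference between DOX and untreated arrays for listed target genes in HP and HE2, ordered by the HP value, with SE bars; open symbols were not tested and the dashed line is the median of all genes. The points run from -3.70 (Ncf1) to 1.53 (Itgam) in HP, where most lie left of the dashed line at 0.295.

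Of 20 relatives of the 10 genes (other SPI, C/EBP, IRF, KLF and NR4A members), none of the 17 tested in HP was called with DOX, 8 were lower and 1 higher without overlap (all genes 11.8% and 28.1%), and the median was -0.23. The lowest were Ddit3 (CHOP, -1.32), Cebpg (-1.15) and Klf6 (-0.87), and Klf3 was the 1 that was higher (0.26), each with an adjusted p of 0.988. In HE2 5 of 18 were lower and 6 higher without overlap (all genes 15.5% and 18.8%). Spic, an ETS factor of red pulp macrophages, was at least 9.53-fold lower, Irf7 was lower (-2.65), while Klf2 (1.05), Irf2 (0.99) and Klf3 (0.91) were higher, none called (adjusted p from 0.568 to 0.703). From untreated HE1 to HE2 5 of 18 were lower (15.7% of all genes), with Klf3 (-1.13), Klf2 (-0.998) and Klf6 (-0.76) the lowest, and 3 were higher (17%): Spic (1.35), Klf13 (0.77) and Irf3 (0.61). Between HE2 and HP, Klf1, the erythroid factor, was higher (2.72, adjusted p = 0.762), as were Irf9 (0.98) and Irf1 (0.98) among 6 of 18 without overlap (15% of all genes), and Spic (-3.24, adjusted p = 0.641) and Klf3 (-0.46) were lower (15.2%).

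Of 32 partners and upstream regulators, 5 of the 32 tested rose from untreated HE1 to HE2 (0.541% of all genes): Ikzf1 (IKAROS, at least 19.3-fold), Gfi1b (19.2-fold), Myb (18.4-fold), Runx1 (17.9-fold, adjusted p = 0.00251) and Nfe2 (15.1-fold). Maf fell at least 4.85-fold (adjusted p = 0.0258). Gfi1 (-0.70) and Batf3 (-0.62) were also lower on every HE2 array and did not pass the test. From HE2 to HP none was called: Gata1 (3.39, adjusted p = 0.283), Egr2 (1.91) and Myb (1.74) led the 13 of 30 that were higher without overlap (15% of all genes), and Runx2 (-2.95), Erg (-0.87) and Gfi1 (-0.85) were among the 4 lower (15.2%). With DOX, Batf3, a bZIP factor that pairs with JUN and IRF8, was lower in HP (-2.88, SE 0.63, adjusted p = 0.178) and in HE2 (-2.81, SE 0.63, adjusted p = 0.568). Junb (-1.63) and Bcl6 (-1.48) were lower in HP as well. Gfi1, a repressor that acts against PU.1 (1.41 in HP and 1.77 in HE2), was higher in both, Tal1 (1.15) in HP and Egr2 (2.11) in HE2. In HP 12 of 31 were higher and 6 lower without overlap (all genes 28.1% and 11.8%). In HE2 10 of 31 were higher and Batf3 was the 1 lower (all genes 18.8% and 15.5%), and none was called in either.

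The list of 22 immediate early and stress-induced genes was followed because Nr4a1 is itself an immediate early gene. In HP with DOX 8 of 21 tested were lower and 2 higher without overlap (all genes 11.8% and 28.1%, median of the list -0.16), led by Atf3 (-3.29, SE 0.70, adjusted p = 0.167), Junb and Ier2 (-1.37), with Jun (0.66) and Fosb (0.64) higher. In HE2 3 of 20 were lower (15.5% of all genes), Atf3 (-2.08), Fosl1 (-1.44) and Klf6 (-0.33), and 6 higher (18.8%), led by Egr2 (2.11), Egr1 (1.22) and Fosb (1.14). From HE1 to HE2 in untreated cells, where Nr4a1 was lower, 8 of 19 were lower without overlap (15.7% of all genes), with Ccn1 (-1.87), Atf3 (-1.74) and Socs3 (-1.38) the lowest, and Ier2 (1.23) and Junb (1.19) were higher (17%). From HE2 to HP, Egr2, Fos (1.35) and Ier3 (1.26) led 8 of 21 that were higher (15% of all genes), and Fosl1 (-1.28) and Jun (-0.53) were lower (15.2%). None of the genes in these comparisons was called. From untreated FLK1+ to 5 h, where Nr4a1 had its highest mean, 4 of 20 tested were called higher and 0 lower. Of all genes, 2.73% were called there, and the median was 1.18 against -0.2 for all genes. From 5 h to d1 BC, 1 of 21 was called lower and 0 higher (1.43% of all genes called), with a median of -0.36 against 0.07. The part of such a response in the Nr4a1 and Klf4 levels was not tested.

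The genes with the most similar pattern were ranked by Pearson's r over the 13 group means, among 28330 genes detected on all arrays of at least 1 group. These r values describe group means of the same arrays, whose replicates share slides, and are not tested. Spi1 was detected on all arrays of 3 of the 13 groups, Cebpa and Cebpe of 4, and their r values, like those of Irf4, rest largely on levels at background. For Spi1 they were Nxpe5 (0.972), Slc24a3 (0.971), a transcript without a symbol (0.97), Nbeal2 (0.966) and the complement gene C1qc (0.965). For Irf8 they included Rab27a (0.954) and Ptprc, the pan-leukocyte antigen CD45 (0.946). For Irf5 they were Rrad (0.937), Kcnn4 (0.898) and an unnamed transcript (0.892). For Cebpa they were Fcgr3 (0.934), Tnfrsf1b (0.933) and Ptpn22 (0.925), for Cebpb Rtn4r (0.955), the lipoxygenase gene Alox5 (0.938) and the receptor gene Il6ra (0.937), for Cebpd Ccl6 (0.971), Rnf166 (0.965) and Iqgap2 (0.962), and for Cebpe Rufy4 (0.963), Selplg (0.962) and Cd200r4 (0.958). For Klf4 they were Pcdhb20 (0.948), Plcb1 (0.926) and Nhsl1 (0.924), and for Nr4a1 Mllt6 (0.935), Sdcbp2 (0.903) and Ly6g6e (0.895). Those of Irf4 (Adtrp at 0.886, Ctcfl at 0.881 and Uvssa at 0.87) rest on levels at background. Among the members, Spi1 was closest to Irf8 (0.917) and Cebpe (0.898) and far from Irf5 (0.103), Cebpa was closest to Cebpb (0.833), and Klf4 and Nr4a1 reached 0.549.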

How the data were processed

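One-colour Agilent mouse arrays measured the RNA of 27 samples. The authors scanned each array with Feature Extraction (10.7.1.1 per the submitters' processing notes, 10.7.3.1 per the file headers) and deposited a background-subtracted intensity per spot, with no scaling across arrays. Spot and background medians, deposited as intensity too, were used for normexp (offset 50). As an alternative served the log2 values deposited by the authors, whose notes name limma and whose scaling is not given in the sources used here. No comparison columns of the authors and no unmapped column (0) were used.

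Intensities were taken to log2 minus the 75th percentile of each array. For each gene the probe with the highest mean was kept. Group means of all 27 arrays were fitted with limma 3.58.1 in R 4.3.3 (14 residual and 4.344 prior degrees of freedom), with Benjamini-Hochberg adjustment over all genes tested. "At least" folds set a group that was nowhere well above background at that background. Figures were drawn with matplotlib 3.10.9 in Python 3.11.15. The fit was tested on simulated data. In the comparison of DOX and untreated HP arrays, 23% of genes changed by 2 on the log2 scale were called, and 72% of those changed by 4.

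The members and all lists were chosen with earlier results of these data known. Named are all members, the genes most like each (5 for Spi1, 3 for the others), and from each list, in HP and HE2 with DOX and in untreated HE1 to HE2 and HE2 to HP, the 3 largest rises and falls without overlap and every called gene. Csf1r was added as named by the study. The alternatives are those of the closing section. Protein sequences, sequencing data and flow cytometry were not analysed here. A few genes that this rule names are not reported here by name, and they remain in the counts.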

Additional observations from a re-analysis of the deposited data

Results flagged for a closer look

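The DOX difference of Irf8 ran in opposite directions in different populations. All DOX arrays were above all untreated arrays in d1 BC, and all were below them in HE2 and in HP. On the log2 scale the d1 BC difference exceeded that in HE2 by 3.65 and that in HP by 4.80. Neither difference between populations was tested. Irf8 was not detected on the untreated d1 BC arrays, so these values rest on a level at background, and the d1 BC difference alone was 0.93 with normexp. The d1 BC cultures were complete and unsorted, whereas HE2 and HP cells were sorted, and the populations lie on different slides.

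Klf4 was lower on both DOX arrays of d1 BC and higher on both of HE2 and of HP. The d1 BC difference minus that in HE2 was -1.47, and minus that in HP it was -0.81, neither of them tested. With median scaling the HP arrays of Klf4 overlapped.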

How the results depend on the processing

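Of 444 recomputed counts 378 stayed within 1.5 times the reported count, and of 1433 recomputed log2 differences of members 1339 kept their direction and side of the threshold, 54 fell below it, 39 rose past it and 1 turned. That was Spi1 from DOX HE2 to HP, at -0.065 without replicate 2 of DOX HE2, and 4.637 against an undetected level without replicate 1. Members called in HP with DOX were 0 in the report, 1 with normexp and 4 on the authors' values. From FLK1+ to 5 h they were 0, against 1 with quantile normalization, 1 on the authors' values and 3 with array weights. From 5 h to d1 BC they were 1 (Cebpa, but Nr4a1 with quantile normalization), against 0 with normexp, detection in both groups, slide or scan day as a term, or the 2 groups alone, and 2 on the authors' values, with slide as a random block or with array weights. From d1 BC to SM they were 0, and 1 with array weights. From d1 BC to HE1 they were 1, against 0 with detection in both groups, slide as a term or the 2 groups alone, 3 on the authors' values, and 2 with quantile normalization, the mean of all probes, slide as a random block, scan day as a term, a variance trend or array weights. From HE1 to HE2 they were 2, against 4 on the authors' values, 1 with normexp, median scaling, no filter or every probe on its own, and 0 with detection in both groups, array weights or the 2 groups alone. From HE2 to HP they were 0, and 3 on the authors' values (Cebpa, Cebpe and Irf8). From SM to HP they were 6, and 3 with detection in both groups (Cebpb, Cebpd and Irf8) or the 2 groups alone (Spi1, Cebpa and Cebpb). From DOX HE1 to HE2 they were 1, and 0 with median scaling, no filter, detection in both groups, every probe, array weights or the 2 groups alone. The 2 members higher without overlap in HP with DOX became 1 with quantile normalization and 0 with median scaling, and the 9 target genes lower without overlap in SM became 5 with either, all chosen after seeing the data. Leaving out 1 array at a time gave 0 to 1 called members in HE2 with DOX, 0 to 0 from 5 h to d1 BC and from d1 BC to HE1, 0 to 1 from HE1 to HE2, 4 to 7 from SM to HP, 0 to 1 from DOX HE1 to HE2 and 0 to 1 from DOX HE2 to HP, and target genes lower without overlap numbered 25 to 27 in HP 18 to 24 in HE2 and 9 to 18 in SM, since fewer arrays overlap less. The other counts did not change when an array was left out. Where a single array remained, its spread was taken from the other groups. The cause of the other changes was not tested. Genes called in HP with DOX numbered 8, against 136 on the authors' values, 51 with slide as a random block, 49 with array weights, 31 with quantile normalization, 29 with normexp, 19 with slide and 18 with scan day as a term, 9 with median scaling, 1 with the replicate block and 0 with a variance trend, the 2 groups alone or detection in both groups. Median scaling moved the median of all genes in HP with DOX from 0.295 to -0.025, at 5 h from 0.01 to -0.643 and in HE2 from 0.105 to 0.611. Replicate numbers are shared between groups, but groups of 2 give 2 pairs and nothing in the labels pairs them: deviations of same-numbered arrays correlated at -0.11 (5 h) to 0.636 (HP) between treatments. With the replicate number as a block, 2 members were called from d1 BC to HE1, 1 from HE1 to HE2 and 0 from DOX HE1 to HE2, and the block changed no other count of called members. For 5 h, pairing the numbers crosswise also called 0 members. Levels near background, as for Spi1 before HE2, have little signal to measure a difference.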
